A study of Drosophila melanogaster with 3 samples.

Results

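Eip75B, Eip74EF, Eip78C, Eip93F, EcR, usp, Hr4, Hr39, ftz-f1 and br encode the receptor for the steroid hormone ecdysone and transcription factors that act in its response. These 10 of 13945 protein-coding genes were chosen from measured values: sites where the homeodomain protein CG18599 was recovered in fruit fly embryos were already known from these files, and Eip75B was among the genes with the most. Every value below therefore describes the genes, and no test was made. A site is the summit of a peak, the position of highest signal, in the authors' list of peaks that passed a filter on the irreproducible discovery rate (IDR), a measure of how alike the replicates rank them. A summit belonged to a gene when it lay in the gene's span, or when a transcription start site (TSS) of the gene was the nearest TSS of any protein-coding gene and lay within 10 kb. The 10 genes held 51 of the 8858 IDR summits, 49 of them inside the spans.

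Chromatin immunoprecipitation and sequencing had been carried out on whole embryos of mixed sex, aged 0 to 24 h, from a transgenic line with stable expression of CG18599 joined at its C-terminal end to GFP. Sonicated chromatin of 200 to 800 bp was pulled down through the GFP tag, in 3 biological replicates that form 1 group. The GFP antibody is that of the sample description, while the antibody label of the samples names CG18599. No condition was compared, and no control sample was analysed here. The promoter that drives the transgene is not given in the sources used here. Whole embryos pool all tissues and stages, so a site used in few cells and a weakly used site in many cells cannot be told apart. Read totals are not in the lists, and the depth behind a peak is therefore unknown.

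Ecdysone enters the cell, binds a heterodimer of the nuclear receptors EcR and usp, and switches on a small set of early genes, among them Eip75B, Eip74EF and br, whose products in turn regulate later genes. Several of these genes have more than one promoter, and their isoforms differ at the N-terminal end. In the embryo a pulse of ecdysone in mid-embryogenesis is needed for germ band retraction, head involution and cuticle formation. In larvae and pupae the same genes order moulting and metamorphosis.

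The sequences around 9 summits are printed: the 3 strongest sites of each of Eip75B and Hr4, the genes with the most, and the strongest site of usp, ftz-f1 and br, so that sites with and without a homeodomain core motif can be read side by side. Each is 101 bases of the plus strand of the RefSeq Release 6 assembly, in dm6 coordinates, in lower case. Capitals mark TAATTA, a core motif of many homeodomain proteins, and GAGAG, the motif of the GAGA factor. Both strands were searched for both motifs. The summit is base 51 of each window, except at Eip75B rank 364. There the window, inside the gene, was moved towards the upstream side of the Eip75B-RC start, and the summit is base 15. In printed order the first base of Eip75B-RC transcripts lies just before the GAGAG. The gene is on the minus strand, so the GAGAG lies upstream of that start.
Eip75B, rank 364 (chr3L:17999792-17999892): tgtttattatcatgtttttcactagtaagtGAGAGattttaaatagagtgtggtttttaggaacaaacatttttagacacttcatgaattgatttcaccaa
Eip75B, rank 1161 (chr3L:18029747-18029847): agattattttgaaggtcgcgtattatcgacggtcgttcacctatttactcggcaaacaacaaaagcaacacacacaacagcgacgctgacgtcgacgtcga
Eip75B, rank 1753 (chr3L:18019788-18019888): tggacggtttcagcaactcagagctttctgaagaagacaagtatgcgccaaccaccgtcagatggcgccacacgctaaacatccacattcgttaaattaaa
Hr4, rank 147 (chrX:1951871-1951971): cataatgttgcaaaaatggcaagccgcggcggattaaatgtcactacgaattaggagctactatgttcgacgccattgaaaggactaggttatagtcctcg
Hr4, rank 486 (chrX:1947687-1947787): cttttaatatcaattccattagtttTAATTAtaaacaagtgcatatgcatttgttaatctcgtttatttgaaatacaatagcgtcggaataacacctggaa
Hr4, rank 520 (chrX:1963866-1963966): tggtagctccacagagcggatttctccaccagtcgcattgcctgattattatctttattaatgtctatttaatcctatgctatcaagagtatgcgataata
usp, rank 4127 (chrX:2041390-2041490): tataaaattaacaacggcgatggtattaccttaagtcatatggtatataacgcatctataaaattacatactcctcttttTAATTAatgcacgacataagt
ftz-f1, rank 2961 (chr3L:18786856-18786956): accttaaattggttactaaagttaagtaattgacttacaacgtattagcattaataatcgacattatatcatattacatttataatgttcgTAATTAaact
br, rank 1676 (chrX:1618805-1618905): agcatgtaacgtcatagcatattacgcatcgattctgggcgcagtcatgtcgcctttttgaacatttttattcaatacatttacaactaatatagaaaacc
TAATTA stood in the windows of Hr4 rank 486, usp rank 4127 and ftz-f1 rank 2961, and in none of the other 6 windows printed. The strongest sites of Eip74EF, Eip78C, Eip93F, EcR and Hr39 have no TAATTA and are not printed. The printed windows therefore hold TAATTA more often than the 51 summits do, of which 4 have it. The shorter core TAAT, or its reverse complement, occurred at 10 places in the ftz-f1 window, 6 in the usp window, 6 at Hr4 rank 520 and 1 at Eip75B rank 364.

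All 10 genes held at least 1 IDR summit, against 32.2% of all protein-coding genes under the same assignment. The 10 genes are long, with a median span of 63.0 kb against 2.17 kb over all genes. Among the 1013 genes of 20 kb or more, a comparison chosen after the data were seen, 81.7% held a summit, and 9 of the 9 ecdysone response genes of that length did. The 10 spans pooled held 0.826 summits per 10 kb, and the chromosome arms held 0.662. Over single genes of 20 kb or more the median was 0.481 and the 75th percentile 1.03. Of the 9, Hr4 had 1.67, Eip75B 1.58, ftz-f1 1.38, Hr39 0.892 and Eip78C 0.501. EcR had 0.493, Eip74EF 0.330, br 0.223 and Eip93F 0. These 9 thus lay on both sides of that median, with Eip78C, close to it, in the middle. The pooled value is not a per-gene value, and Eip75B, chosen for its many summits, weighs on it. Most of the summits sat in a few genes: 18 belonged to Eip75B, 11 to Hr4, 7 to ftz-f1 and 4 to EcR. Eip74EF, Eip78C, usp, Hr39 and br had 2 each, and Eip93F had 1. Only Eip75B and Hr4 among the 10 reached 10 summits, which 0.531% of all genes and 7.01% of genes of 20 kb or more did.

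**Figure D1:**
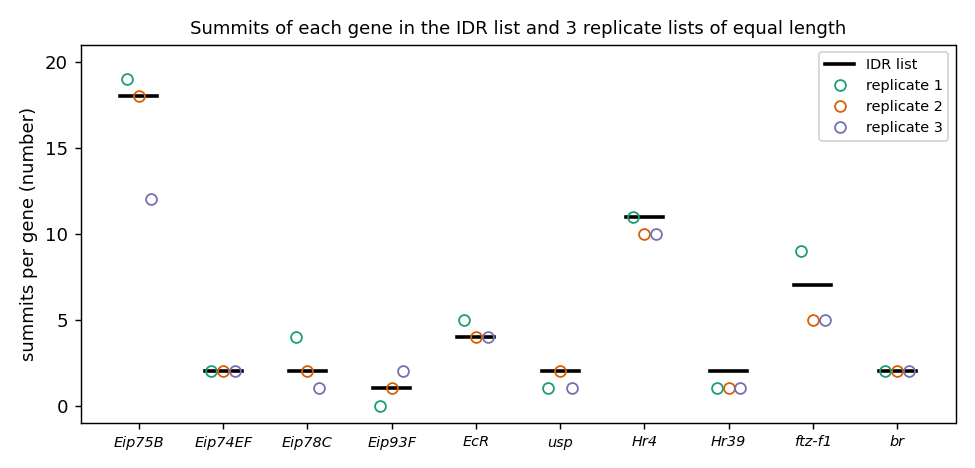
Number of summits of each gene in the IDR list (bars) and in the 8858 strongest peaks of each replicate (circles), under the same assignment. Eip75B has the most in every list, with 19, 18 and 12 in replicates 1, 2 and 3, and the 3 circles of Eip75B and ftz-f1 lie further apart than those of Hr4.

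EcR and usp encode the subunits of the ecdysone receptor. EcR (FBgn0000546) lies on the minus strand of 2R from 6087873 to 6169087 and held 4 summits, all in introns. Its strongest, rank 1013, stood at ranks 1357, 843 and 939 in replicates 1, 2 and 3, highest in replicate 2 and lowest in replicate 1. That site was 5819 bp downstream of the start shared by EcR-RD and EcR-RE, inside the gene. The other EcR summits were weaker, at ranks 5382, 5508 and 8348, and lay 11364, 1336 and 974 bp from the nearest EcR start. None of the EcR starts had a summit within 500 bp.

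The gene usp (FBgn0003964; X, 2038798 to 2042311, minus strand), the fly counterpart of the vertebrate retinoid X receptor, is the shortest of the 10 at 3.51 kb and had a summit at both of its starts. The stronger, rank 4127, lay 128 bp upstream of usp-RA and stood at ranks 3861, 4459 and 4686 in replicates 1, 2 and 3. Replicate 1 placed it highest, and the 3 ranks are close to each other. The whole of usp lies in the span of Actn, the alpha-actinin gene, on the same strand. The weaker summit, rank 8575, lay 111 bp upstream of the usp-RB start, which is also a start of Actn, and inside the span of CG4313, so it cannot be given to any of these 3 genes alone. It had rank 9142 in replicate 1 and 7106 in replicate 2, and no peak of replicate 3 lay within 250 bp of it.

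Eip75B (FBgn0000568; 3L, 17950953 to 18064696, minus strand) encodes a heme-binding nuclear receptor of the Rev-erb family and spans 114 kb with 7 start sites. Only 14 genes, 0.100% of all, had 18 or more IDR summits. Its strongest summit, rank 364, lay 15 bp inside the first exon of Eip75B-RC and had ranks 271, 468 and 342 in replicates 1, 2 and 3. It was the strongest Eip75B site in every replicate, highest in replicate 1. The promoters of Eip75B-RA and Eip75B-RD carried weaker sites: rank 4437 was 3 bp upstream of RA, and ranks 4989 and 7255 were 76 bp downstream and 123 bp upstream of RD. The starts of RF, RE, RB and RG had no summit within 500 bp.

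The other Eip75B summits were intronic. No summit lay in the first 34.7 kb, which holds the RF, RE and RB starts. Of these summits, 2 lay shortly upstream of RG, 8 between the RG and the RC start, which are 26.2 kb apart, and 3 between RC and RA, and rank 5596 lay downstream of RD. The strongest of them, rank 1161, had ranks 804, 1557 and 1369 in replicates 1, 2 and 3 and lay 3765 bp upstream of RG. Rank 1753, 6194 bp downstream of RG, had ranks 2146, 1330 and 2017. Rank 2117, 3749 bp upstream of RC, had ranks 2299, 1820 and 2856. The order of these 3 sites was the same in replicates 1 and 3, and in replicate 2 rank 1753 stood above rank 1161. Past the annotated end of Eip75B, 7 further summits had an Eip75B start as the nearest one but lay 11148 to 20017 bp from it, so they were not counted. They were 287 to 9156 bp beyond the gene end, with IDR ranks from 3186 to 8018.

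**Figure D2:**
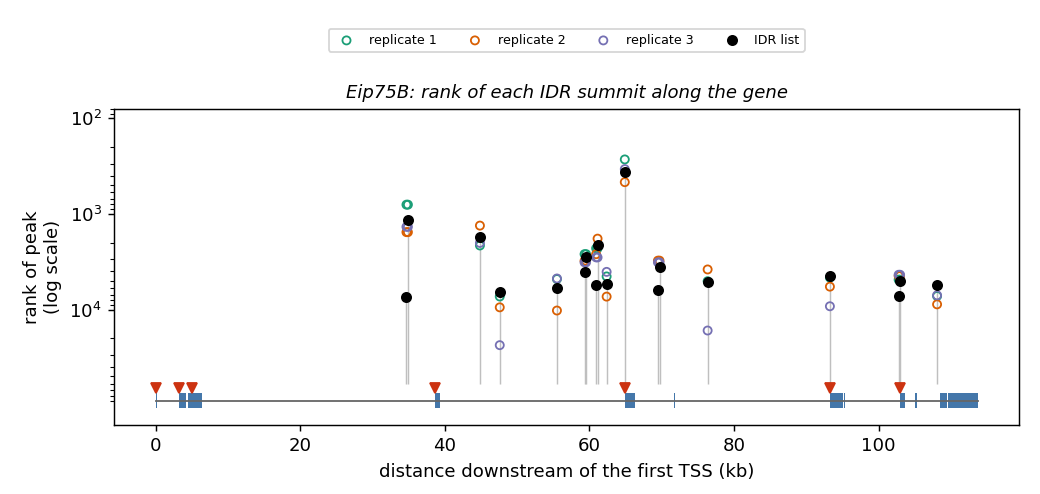
Eip75B drawn from its first TSS (triangles, start sites; boxes, exons), with the rank of each IDR summit in the IDR list (black) and of the strongest peak within 250 bp of it in each replicate (open circles), on a reversed log axis. The first 34.7 kb holds no summit, 8 lie between the RG and the RC start, and rank 364 stands at the RC start.

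Some of the 18 summits are neighbours that the deposited list counts separately. Of neighbouring summits under 250 bp apart, 5 pairs lay in Eip75B and 1 in Hr4, 199 to 219 bp apart. In each pair, the strongest replicate summit within 250 bp was the same for both in at least 2 of the 3 replicates. Weaker replicate summits nearby were not looked at, so a replicate may also have had a second one. Over the whole IDR list there were 625 such neighbours and none under 199 bp. With summits closer than 250 bp merged, Eip75B had 13 sites, Hr4 had 10 and the 10 genes had 45.

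Eip74EF (FBgn0000567; 3L, 17558672 to 17619325, minus strand) and br (FBgn0283451; X, 1575132 to 1664869, plus strand) are early genes too, encoding an ETS-domain factor and a family of BTB zinc-finger factors. Both are long, at 60.7 and 89.7 kb, and had 2 summits each, against 18 at Eip75B. The early gene Eip75B was chosen with its many summits known, so this contrast partly follows from the choice. At Eip74EF, rank 4229 stood at ranks 5472, 4765 and 3301 in replicates 1, 2 and 3, far inside the gene and slightly nearer to a start of CycT than to one of its own. The other, rank 8139, had ranks 11464, 9462 and 7065 and was 5788 bp downstream of the first start. A further summit 2282 bp upstream of that start, rank 3879, belonged to Vps60, whose start was 18 bp away.

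The strongest br summit, rank 1676, had ranks 1866, 1481 and 1839 in replicates 1, 2 and 3. It lay in a br intron, 3453 bp upstream of the nearest br start and only 700 bp from a start of Mur2B, a gene on the other strand whose span covers all of br. The second, rank 3448, had ranks 3830, 3472 and 3499 and was 5337 bp from a br start. Both sites were in the lists of all 3 replicates, and none of the 9 br starts had a summit within 500 bp.

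Hr4 (FBgn0264562; X, 1941940 to 2007956, plus strand) encodes a nuclear receptor that in larvae helps to shut off early genes once the ecdysone pulse declines. Of the 10 genes it held the strongest site. That summit, rank 147, was in an intron 9981 bp downstream of the first start, with ranks 126, 172 and 137 in replicates 1, 2 and 3. Rank 486, 5797 bp downstream, had ranks 555, 615 and 356, and it is the Hr4 window with TAATTA. Rank 520, 21976 bp downstream, had ranks 504, 598 and 520. Rank 147 came first of the 3 in every replicate, and the other 2 changed places between replicates. Of the 11 Hr4 summits, 7 lay within 12 kb of the first start, yet neither Hr4 start had one within 500 bp. The nearest summit upstream, rank 2434 at 1748 bp, was 115 bp from a start of CG3587 and was counted there. In all, 58 genes, 0.416%, had 11 or more summits.

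The genes ftz-f1 (FBgn0001078; 3L, 18750607 to 18801309, minus strand) and Hr39 (FBgn0261239; 2L, 21237250 to 21259675, plus strand) encode related nuclear receptors. The product of ftz-f1 acts with the Ftz homeodomain protein in segmentation of the embryo and makes prepupal tissues competent to respond to ecdysone. Its 7 summits included rank 2961, 14403 bp downstream of the ftz-f1-RB start, with ranks 3159, 3573 and 3064 in replicates 1, 2 and 3. Rank 3455, 3773 bp upstream of the RC and RD start, had ranks 2900, 5314 and 2939. Of the other ftz-f1 sites, rank 8669 lay 65 bp inside the RB transcript and was in the strongest 8858 peaks of replicate 1 alone, at ranks 8536, 9227 and 15284. Hr39 had 1 summit 140 bp downstream of its only start, rank 5808, with ranks 8677, 9003 and 3637. Its other summit, rank 7080, was nearer to a start of l(2)k14505 and had ranks 11200, 5229 and 22627. Neither Hr39 site was in the strongest 8858 peaks of all 3 replicates.

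Eip78C (FBgn0004865; 3L, 21226609 to 21266503, plus strand) encodes an orphan nuclear receptor. It had rank 6406, 1414 bp downstream of Eip78C-RB and at ranks 8682, 7196 and 6277, and rank 7085, which was nearer to a start of CG43218. Eip93F (FBgn0264490; 3R, 21949114 to 22014539, plus strand) encodes a transcription factor needed for death of larval tissues and for adult fates at metamorphosis. Although it spans 65.4 kb, it had no summit in its span and was counted only for rank 7964, 7538 bp upstream of its first start. That site had rank 26653 in replicate 1, 6683 in replicate 2 and 7212 in replicate 3, so replicate 1 listed it far below the other two. Outside the spans, this summit and rank 8575 upstream of usp were the only ones within the 10 kb limit, and the nearest beyond it was 11148 bp from an Eip75B start.

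**Figure D3:**
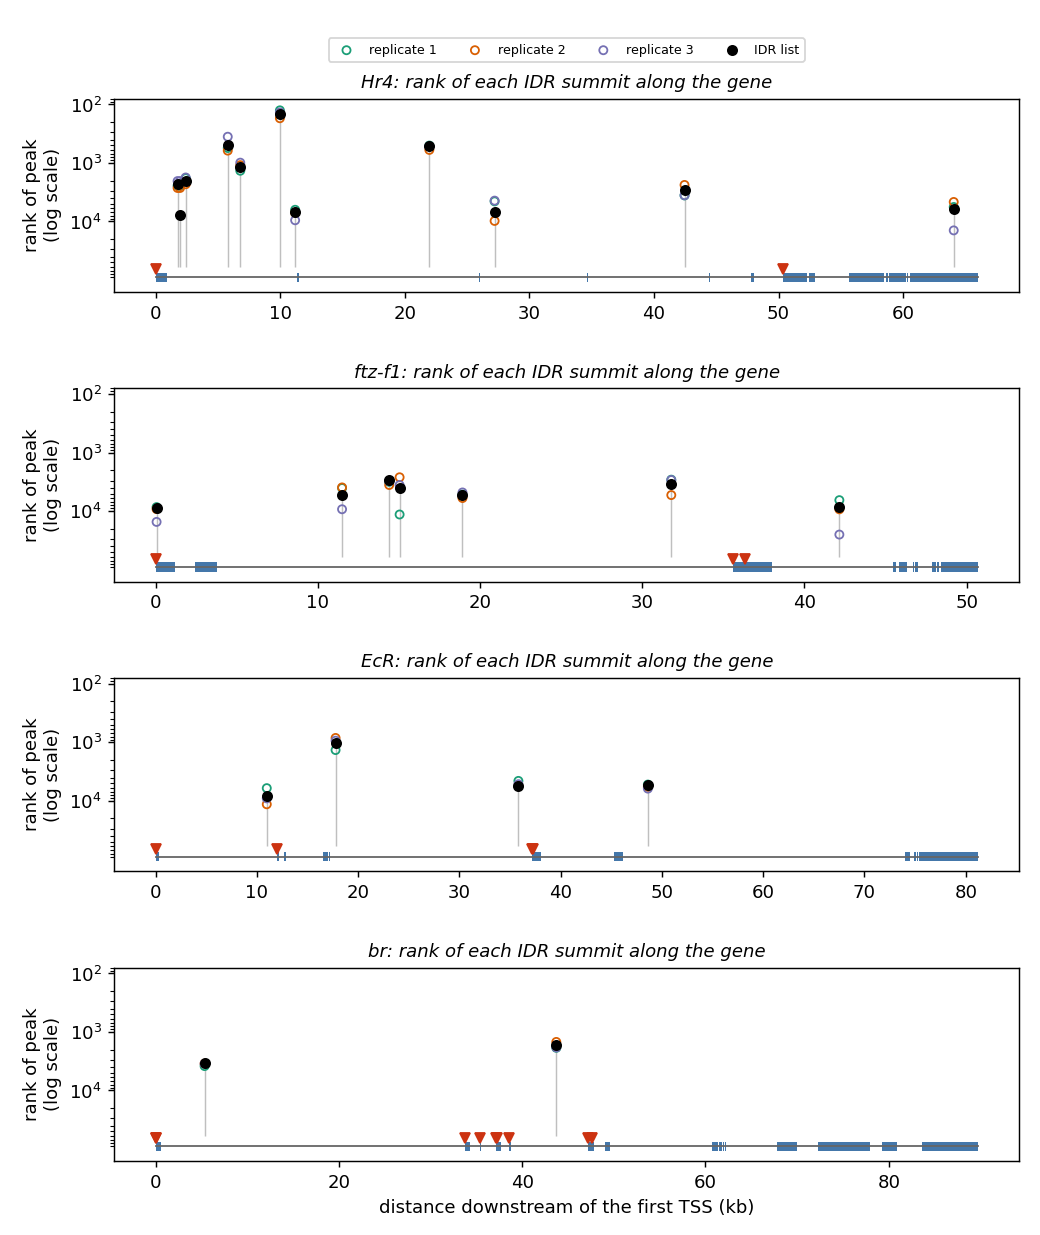
Hr4, ftz-f1, EcR and br, each drawn from its first TSS (triangles, start sites; boxes, exons), with ranks of IDR summits (black) and of the replicates (open circles) on reversed log axes. In Hr4, 7 summits lie within 12 kb of the first start, and in EcR and br the strongest summit lies inside the gene and not at a start.

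Support by the replicates was uneven. Each replicate list was cut to its 8858 strongest peaks, the length of the IDR list, and a summit was counted as found where a replicate summit lay within 250 bp. Replicate 1 held 54 summits of the 10 genes, replicate 2 held 47 and replicate 3 held 40, a mean of 47.0 ± 7.0 (SD, n = 3). Eip75B accounted for much of that spread, with 16.3 ± 3.79, and Hr4 for little, with 10.3 ± 0.577 (SD, n = 3). For ftz-f1 the replicates held 9, 5 and 5, or 6.33 ± 2.31, and for EcR 5, 4 and 4, or 4.33 ± 0.577 (SD, n = 3). Of the 51 summits, 31 were found in all 3 replicates, which is 60.8% with an exact Clopper-Pearson 95% interval of 46.1 to 74.2, against 70.1% of all IDR summits, a share inside that interval. Neighbours under 250 bp apart can both be found through the same replicate summit. With such neighbours merged, 26 of 45 were found in all 3, or 57.8%. The intervals given here cover counting error only. By replicate, 86.3%, 84.3% and 76.5% of the 51 were found, or 82.4% ± 5.19 (SD, n = 3), against 85.9%, 88.3% and 85.9% over the IDR list. Replicate 3 was furthest below the share of the whole list, though its interval for the 51, 62.5 to 87.2, still holds 85.9. Because the replicates went into the IDR list, these shares show spread and are not separate evidence.

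Among the 10 genes, 8 had at least 1 summit found in all 3 replicates, against 25.4% of all genes, and Hr39 and Eip93F did not. Of the 4489 genes with an IDR summit, 3538 had one found in all 3, so 8 of 10 does not set these genes apart. Where a summit had to be found in both remaining replicates when 1 was left out, the 51 became 35, 34 and 37 without replicates 1, 2 and 3, and Eip75B had 14, 13 and 14 of its 18. Of the 10 genes, 9, 9 and 8 then still held a summit. The count for ftz-f1 fell from 7 to 4, 3 and 4, Eip74EF and usp fell from 2 to 1 each time, and Eip78C had 1, 1 and 2. Eip93F had 0 without replicate 2 or 3 and Hr39 had 0 without replicate 1 or 3 and 1 without replicate 2. Hr4 had 8, 9 and 10, EcR had 3 each time and br had 2 each time.

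**Figure D4:**
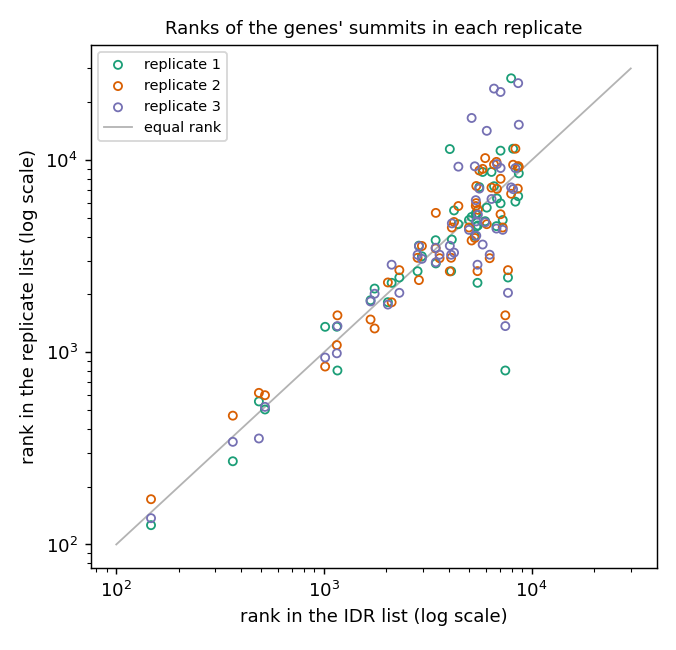
Rank of each of the 51 summits in the IDR list against the rank of the strongest peak within 250 bp in each replicate, on log axes, with the line of equal rank. The strongest sites lie close to the line and the weakest spread widely. Most of the points furthest under the line at weak IDR ranks belong to neighbours under 250 bp apart that share a replicate peak. Summits without such a neighbour also lie under it, such as Hr39 rank 5808, at rank 3637 in replicate 3.

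The sites of the 10 genes were mostly of middling strength. Their median IDR rank was 5322, the range ran from 147 to 8669, and 22 of 51, or 43.1%, were in the stronger 50% of the list. The strongest 10%, or 885 peaks, held 4 of the 51: Eip75B rank 364 and Hr4 ranks 147, 486 and 520. These belong to 2 of the 10 genes, and 5.90% of all genes had a summit of that strength. Those are 823 of the 4489 genes with an IDR summit.

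Most sites lay away from promoters. Of the 51 summits, 44 were in introns, 5 in exons and 2 outside the span. Within 500 bp of any TSS were 8 of 51, or 15.7% (95% interval 7.02 to 28.6), against 36.1% of all IDR summits. Of IDR summits in genes of 20 kb or more, 16.4% lay within 500 bp of a TSS, close to the share of the 10 genes. The median distance to the nearest TSS was 5337 bp for the 10 genes and 1352 bp for all IDR summits. Counted by start sites, 7 of the 36 TSS positions of the 10 genes had a summit within 500 bp, against 23.1% of all TSS positions. Those 7 belong to Eip75B, usp, Hr39 and ftz-f1, so 4 of 10 genes had a summit at a start of their own, against 19.5% of all genes. Of the 4489 genes with an IDR summit, 2716 had one at an own start.

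**Figure D5:**
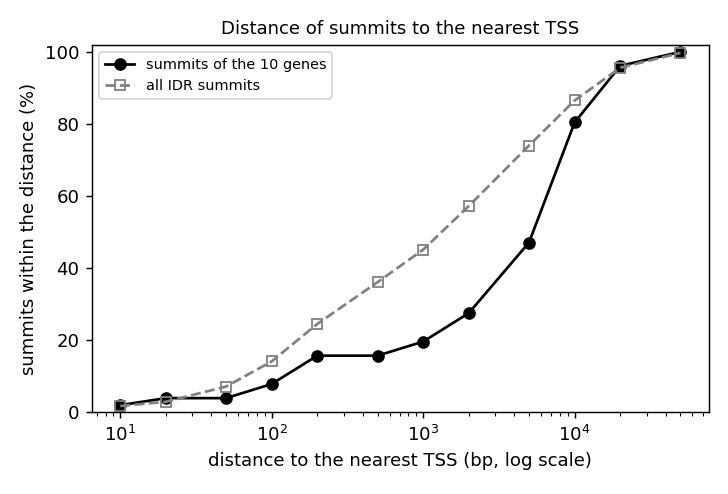
Cumulative share of summits (percent) within a given distance (bp, log scale) of the nearest protein-coding TSS, for the 51 summits of the 10 genes and for all 8858 IDR summits. The curves run together up to 20 bp and then separate, with 15.7% of the former and 36.1% of the latter within 500 bp, and meet again near 20 kb.

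Short motifs were sought within 50 bp of each summit, on both strands, as letters only. TAATTA was present at 4 of 51 summits, 7.84% (95% interval 2.18 to 18.9), against 9.07% of all IDR summits. In windows of the same width centred 500 bp to either side, it was present in 3.92% for the 10 genes and 6.51% for all IDR summits. Those 4 are Hr4 rank 486, usp rank 4127, ftz-f1 rank 2961 and Eip75B rank 5412. TAAT, which TAATTA contains, was near 36 of 51, or 70.6%, and near 71.9% of all IDR summits, with 62.7% and 59.5% in the windows to either side. Neither share sets the genes apart from the rest of the list. AGGTCA, the core of most nuclear receptor binding sites, was within 50 bp of 0 of 51 summits, which allows a share of up to 6.98%, and of 1.81% of all IDR summits. In the windows to either side it was present in 4.90% for the 10 genes and 2.31% for all. CAAGGTCA, the longer form bound by ftz-f1 and Hr39, which contains AGGTCA, was also at 0 of 51 and at 0.147% of all. TCANTGA, the middle of the inverted repeat bound by EcR and usp, was at 1 of 51, ftz-f1 rank 8610, and at 2.60% of all, and the longer GTCANTGAC at 0 of 51 and 0.0564% of all.

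GAGAG was near 7 of 51 summits, 13.7%, and near 11.9% of all, and it was more frequent to either side, in 22.5% of windows for the 10 genes and 13.3% for all. CAGGTAG (the Zelda motif), TATCGATA (DREF), CGATAG and CACGTG (an E-box) were at 0 of 51, and at 0.384%, 0.847%, 3.56% and 0.881% of all IDR summits. CGATAG can overlap TATCGATA. The windows of the 10 genes were 61.9% ± 10.3 A or T (SD over 51 windows), close to the 63.9% ± 10.2 of all 8858.

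In 5 lists of 10 to 21 genes around this core of the pathway, 14.3% to 60.0% held an IDR summit, against 32.2% of all genes. Of 14 genes of ecdysteroid synthesis and turnover, 2 held an IDR summit, 14.3%, below the 32.2% of all genes: mld, which encodes a zinc-finger regulator of the synthesis enzymes, with best rank 2666, and shd, the enzyme that makes the active hormone, with best rank 5713. Of 13 genes of ecdysteroid transport and receptor coactivators or corepressors, 6 held one, 46.2%. They include the corepressor gene Smr with best rank 444, the nucleosome remodeller gene Mi-2 with 1056, DopEcR, a membrane receptor for ecdysteroids and dopamine, with 1248, and bon, a cofactor of nuclear receptors, with 1338. The Mi-2 site lay in the span of Mi-2 but nearer to a start of Su(Tpl). The median span was 3.33 kb in the synthesis list and 13.0 kb in the cofactor list.

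Among 14 other nuclear receptor genes, with a median span of 8.48 kb, 6 were occupied, 42.9%. Hr3, an early-late gene that activates ftz-f1, had the best rank of the 5 lists, 65, with ranks 84, 64 and 49 in replicates 1, 2 and 3. That site was inside the gene and 7868 bp from its nearest start, and a start of CG46321 was equally near. Hr38, Hr78 and Hnf4 had best ranks of 705, 930 and 1485. Of 21 other ecdysone-induced genes, with a median span of 3.59 kb, 11 were occupied, 52.4%: E23, a transporter gene, with best rank 162, ImpL3 (now Ldh), the lactate dehydrogenase gene, with 214, Eip63F-1, a calcium-binding protein gene, with 258, and ImpL2, an insulin-binding protein gene, with 571. Ranks in the 3 replicates were 189, 153 and 165 for E23 and 255, 232 and 176 for ImpL3. A start of CG46460 was as near to the ImpL2 site as that of ImpL2. Of 10 genes of the juvenile hormone pathway, the other main hormone of insect moults, 6 were occupied, 60.0%, at a median span of 2.73 kb. The order of the 5 shares was not that of the median spans. Occupied and unoccupied genes within a list were not compared by span, and a part of gene length was not tested. The receptor gene gce had best rank 146 and FAMeT (now CG10527), an enzyme of hormone synthesis, 182, followed by the epoxide hydrolase genes Jheh1 and Jheh3 at 1508 and 2394. These lists are short, and nothing was tested on them.

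The genes whose 4 counts (the IDR list and the 3 replicates) were most like those of Eip75B were found by the smallest sum of absolute differences. CG46467 and Glut4EF overlap, share their summits and had 16, 20, 18 and 17, a difference of 8 in all. For jing, px and shep, with 19 IDR summits each, the difference was 10. The best ranks of the 5 ran from 5 (px) to 2046 (jing), with 1115 for both CG46467 and Glut4EF, and all but px, at 67.8 kb, span 114 to 122 kb, about as long as Eip75B. CG18599 itself had 2 IDR summits, the stronger at rank 6072.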

How the data were processed

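Peak lists on dm6 for 3 replicates, for the pooled reads and after the IDR step were used; dm3 lists were not used here. Per the deposited notes, replicate lists were made from the reads of a replicate and of a control. Each peak has a signal value computed by the authors, which served here only for ranks inside one list, and a deposited −log10 q-value, used only as an alternative ranking. The aligner, peak caller, IDR threshold and signal scale were not given in the sources used here. The IDR list was exactly the 8858 strongest of 30000 pooled entries, and all replicate lists hold 30000.

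The summit was the peak start plus the deposited offset, which is counted from 1 in these files. Gene models were those of Ensembl release 115, with older symbols matched through RefSeq synonyms; phm, torso and EcI were matched by hand to phtm, tor and Oatp74D, and let-7-C had no match. Counts, ranks and shares were computed with Python 3.11.15, numpy 2.4.6 and scipy 1.17.1. The assignment was checked against a direct search at random positions inside real genes. For motifs, only a TAATTA planted in random sequence was looked for, which had to be found. The search of both strands and the other motifs were therefore not checked. A replicate's rank is that of its strongest peak within 250 bp. The named genes are all 10 genes, the 4 best-ranked occupied genes of each pathway list, the 5 genes most like Eip75B, and CG18599. Genes, lists and motifs were chosen with earlier results of these data known. No test was made. Alternatives were another threshold, distance, ranking and merging, and each replicate left out.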

Additional observations from a re-analysis of the deposited data

How the results depend on the processing

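In the stronger 50% of the IDR list the 10 genes had 22 summits and Eip75B 7, and 90.9% of these 22 were found in all 3 replicates. That share was 39.2% when a replicate summit had to lie within 100 bp and 94.1% over whole replicate lists. All other alternatives for the totals, the occupied genes, Eip75B, the share at a TSS and TAATTA stayed within 1.5 times the reported count, or within the 95% interval of the share. With single genes, 38 alternative values moved and 35 did not. Assigning by the nearest TSS alone left Hr4 with 7, ftz-f1 with 3, and Eip74EF, Eip78C, Hr39 and br with 1 summit each. Within 1 kb of a TSS or in the span, Eip93F had 0. Ranking by the −log10 q-value carries little: 4891 IDR peaks share the highest value, and 7 of the 10 genes have a summit there. Read depth was not given, so absence of a summit is not absence of binding. No paired analysis was possible because the samples form 1 group.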
